A study of Rattus norvegicus with 5 samples.

Results

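C1q-positive cells of rat skin were described in 5 single-cell RNA libraries, 1 from unirradiated skin and 4 from skin taken after irradiation. A cell was included when it carried at least 2 unique molecular identifiers (UMIs, each standing for 1 captured RNA molecule) in at least 2 of the genes C1qa, C1qb and C1qc. It also had to carry no UMI of Cd3d, Cd3e or Cd3g, under 1% of its UMIs in Col1a1, Col3a1 and Dcn together, and under 1% in 6 keratins (Krt1, Krt5, Krt10, Krt14, Krt15 and Krt17). Barcodes entered with 500 UMIs and 300 genes or more and a mitochondrial share of no more than 20%, and of 43408 such barcodes 524 passed. Control skin held 165 of these cells, and the 7, 14, 28 and 60 d libraries held 157, 33, 134 and 35. The 3 C1q genes chose the cells, so their levels are a description and support nothing.

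The skin came from male Sprague-Dawley rats, bought at 4 weeks of age, whose buttock field received a single dose of an electron beam while the rest of the body was shielded with lead. The 5 groups were control (skin that was not irradiated) and skin irradiated 7, 14, 28 or 60 days earlier. Each group was 1 library, so the effect of irradiation cannot be told apart from differences between animals, dissociations or library preparations, and no test between groups was possible. The study's methods describe the 7, 14 and 28 d samples and the control, and they do not describe the 60 d library. Skin was digested with enzymes to single cells and sorted to remove debris and dead cells, so cells that resist digestion or break easily may be under-represented. All intervals below are exact 95% intervals and cover counting error only.

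C1qa, C1qb and C1qc encode the 3 chains of C1q, the recognition molecule that starts the classical complement pathway and also tags dying cells for uptake. In skin, as in many tissues, macrophages are a main source of C1q. Resident dermal macrophages typically carry the growth factor receptor Csf1r and scavenger receptors such as the mannose receptor Mrc1, the haemoglobin receptor Cd163 and the hyaluronan receptor Lyve1. Cells that have recently come from blood monocytes, and Langerhans and dendritic cells, carry less of these.

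The promoters of 2 of the genes that define the cells are shown because these genes set which cells are described. The sequences are from RefSeq (build GRCr8, not the Rnor_6.0 build of the counts), both from the minus strand of chromosome 5, and run from 250 bases before to 50 bases after the gene's start. Capitals mark GGAAGT, the core recognised by ETS factors such as PU.1, on either strand. The motif was chosen after the sequences were seen.
C1qa (chr5:154419884-154420183): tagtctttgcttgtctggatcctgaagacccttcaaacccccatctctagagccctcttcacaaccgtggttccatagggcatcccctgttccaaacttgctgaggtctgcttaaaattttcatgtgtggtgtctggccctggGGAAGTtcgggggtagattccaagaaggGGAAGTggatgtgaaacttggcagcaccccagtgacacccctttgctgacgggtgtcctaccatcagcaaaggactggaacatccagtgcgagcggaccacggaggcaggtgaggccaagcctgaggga
C1qb (chr5:154407778-154408077): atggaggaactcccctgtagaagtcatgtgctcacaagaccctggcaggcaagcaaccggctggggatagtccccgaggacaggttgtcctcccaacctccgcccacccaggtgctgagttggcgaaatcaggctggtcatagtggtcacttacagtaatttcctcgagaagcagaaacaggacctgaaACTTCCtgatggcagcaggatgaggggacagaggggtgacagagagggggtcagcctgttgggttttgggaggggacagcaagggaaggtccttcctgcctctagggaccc
The C1qa window held GGAAGT at 107 and 79 bases before the start, and the C1qb window held its reverse at 61 bases before the start. Of 33469 rat promoter windows of the same length, 22.6% held GGAAGT on either strand, so each match is a description of the letters and not of a bound site. The promoter of C1qc was not analysed here.

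The C1q genes themselves were lowest at 14 d and 28 d and close to control at 60 d. C1qa stood at 7112 CPM in control skin and 4573, 2252, 2804 and 6849 CPM at 7, 14, 28 and 60 d (CPM is a gene's UMIs scaled to a fixed library total). C1qb stood at 5659.5 CPM in control skin and 3486, 2129, 2183 and 5896 CPM later, and C1qc at 6036 CPM and 3454, 1513, 1894 and 5889.5 CPM.

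C1q-positive cells made up less of the 14 d and 60 d libraries than of the control library. They were 1.63% of kept barcodes in control skin (1.39 to 1.89). In the irradiated libraries the share was 1.39% at 7 d (interval 1.18 to 1.62), 0.755% at 14 d (interval 0.520 to 1.06), 1.48% at 28 d (interval 1.24 to 1.75) and 0.409% at 60 d (interval 0.285 to 0.569). The difference from control was -0.870 percentage points at 14 d (-1.22 to -0.485) and -1.22 points at 60 d (-1.51 to -0.930). At 7 d it was -0.236 points (-0.573 to 0.0961) and at 28 d -0.142 points (-0.499 to 0.218), both with intervals that span 0. The denominator matters here, because shares of all barcodes move with how many keratinocytes and fibroblasts were released. A second denominator used other myeloid cells, defined by at least 2 UMIs in at least 2 of Tyrobp, Fcer1g and Ctss and no C1q UMI, under the same limits (C1q-negative myeloid cells, 230, 297, 314, 466 and 98 cells in the same order). Among both kinds together, C1q-positive cells were 41.8% in control skin and 34.6%, 9.51%, 22.3% and 26.3% in the 7, 14, 28 and 60 d libraries. Here the 14 d library was the lowest, with a difference from control of -32.3 points (-38.1 to -26.2). The differences at 7, 28 and 60 d were -7.19 (-13.9 to -0.478), -19.4 (-25.4 to -13.4) and -15.5 points (-24.3 to -5.78). The C1q-negative cells were a mixture, and the name myeloid holds in part. Their T and NK cell genes summed to 3586 CPM in control skin and 3026, 3335, 1074 and 3743 CPM in time order. Their neutrophil genes summed to 13536 CPM and 7702, 7834, 3843 and 4558 CPM. The part of this mixture in the shares and in the comparisons below was not tested. In a sort of dissociated tissue, fewer cells of a type and fewer cells recovered cannot be told apart.

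**Figure D1:**
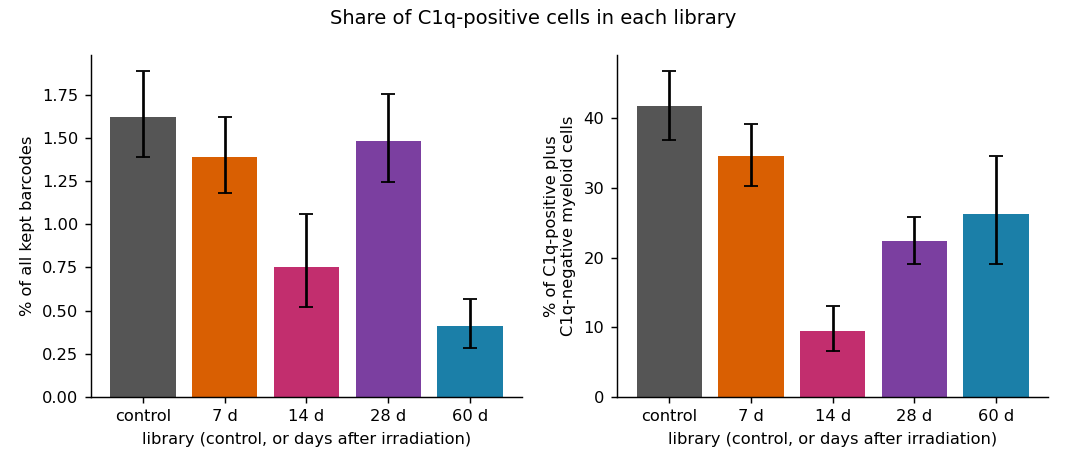
Share of C1q-positive cells in each of the 5 libraries, as a percent of all kept barcodes (left) and of C1q-positive plus C1q-negative myeloid cells (right). Bars are the share and lines its exact 95% interval for counting error. On the left the 14 d (0.755%) and 60 d (0.409%) bars are the lowest, and on the right the 14 d bar (9.51%) is.

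The C1q threshold weighed most on the 14 and 28 d libraries. Cells just inside it, with exactly 2 UMIs in 2 of the C1q genes and fewer in the other, numbered 1, 1, 2, 2 and 0 in control skin and at 7, 14, 28 and 60 d (median C1q counts 4, 4, 5 and 4.5 UMIs where there were any). Cells just outside it, with at least 2 UMIs in only 1 of the genes, numbered 8, 8, 21, 72 and 4 (medians 2, 3.5, 3, 3 and 2 UMIs). These stand beside 165, 157, 33, 134 and 35 members, of which 157, 146, 23, 98 and 34 had at least 2 UMIs in all 3 genes. A further 41 cells at 7 d met the C1q threshold but failed a limit, 37 of them for collagen. The median C1q count per member was 96 UMIs in control skin and 54, 30, 19.5 and 60 UMIs in the 7, 14, 28 and 60 d libraries, so most members were far from the threshold. C1q UMIs were found in other cells too, and their source was not tested. Among barcodes rich in keratin UMIs, 7.18% in control skin and 6.41%, 2.95%, 2.93% and 0.902% at 7, 14, 28 and 60 d held at least 1 C1q UMI, but at most 0.200% of them in any library reached the C1q threshold. No doublet caller was run, and 1, 4, 0, 5 and 0 members had over 3 times the median UMIs of the members of their library. No barcode of a member was shared with a member of another library.

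Depth set what could be seen. Summed over members, control skin held 935059 UMIs and the 7, 14, 28 and 60 d libraries 1036067, 235346, 591896 and 148059 UMIs. With these totals 1 UMI was worth 1.07, 0.965, 4.25, 1.69 and 6.75 CPM in the same order. The median member had 5860 UMIs in control skin and 5256, 7101, 3476 and 3668 UMIs in the irradiated libraries in time order. A single cell held 11.7% of all member UMIs at 7 d (120796 UMIs) and at most 7.23% elsewhere. Median mitochondrial shares of the members lay between 4.35% and 7.86%. Before filtering, 25.5% of barcodes at 14 d exceeded the mitochondrial limit, against 6.40% in control skin.

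The name macrophage held in part. General macrophage genes were present in every library. Cd68, a lysosomal glycoprotein of macrophages, stood at 589 CPM in control skin and at 580, 620, 706 and 723 CPM at 7, 14, 28 and 60 d, in at least 75.4% of members of each library. Aif1, a calcium-binding protein of macrophages and microglia, stood at 1394 CPM in control skin and at 1353, 663, 1007 and 1790 CPM. Tyrobp, a signalling adaptor of myeloid receptors, ranged between 2192 and 2909 CPM. Of the pan-macrophage list as a whole, 6, 9 and 7 of 18 measured genes were at least 2-fold lower at 7, 14 and 28 d and 1, 3 and 2 higher, and at 60 d 2 of 19 were lower and 3 higher. Over all measured genes, 6.72%, 17.8%, 14.6% and 25.1% were at least 2-fold lower in time order, and 11.8%, 18.0%, 14.6% and 10.9% higher. The 60 d count of lower genes thus lay under its background. Macrophage genes were present at all 5 times, with part of the list lower at 7, 14 and 28 d.

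The resident macrophage markers Csf1r and Mrc1 were found in a smaller share of members in every irradiated library than in control skin, and in the smallest at 14 d. Csf1r was found in 86.1% of members in control skin and in 57.3%, 42.4%, 51.5% and 74.3% of members in time order. Mrc1 was found in 84.2% of members in control skin and in 60.5%, 18.2%, 29.1% and 65.7% of members in time order. After each cell was thinned to 1000 UMIs, which removes differences of depth, the Mrc1 share was 60.9% in control skin, 20.5% at 7 d, 3.03% at 14 d and 38.2% at 60 d, against at most 0.110% of thinned keratin-rich cells (median depth before thinning 10927 UMIs in control skin). Cd207, the Langerhans cell receptor langerin, was found in 0 cells in control skin and in 9, 8, 45 and 1 cells at 7, 14, 28 and 60 d. Because of this mixture the cells are called C1q-positive cells here and not macrophages.

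**Figure D2:**
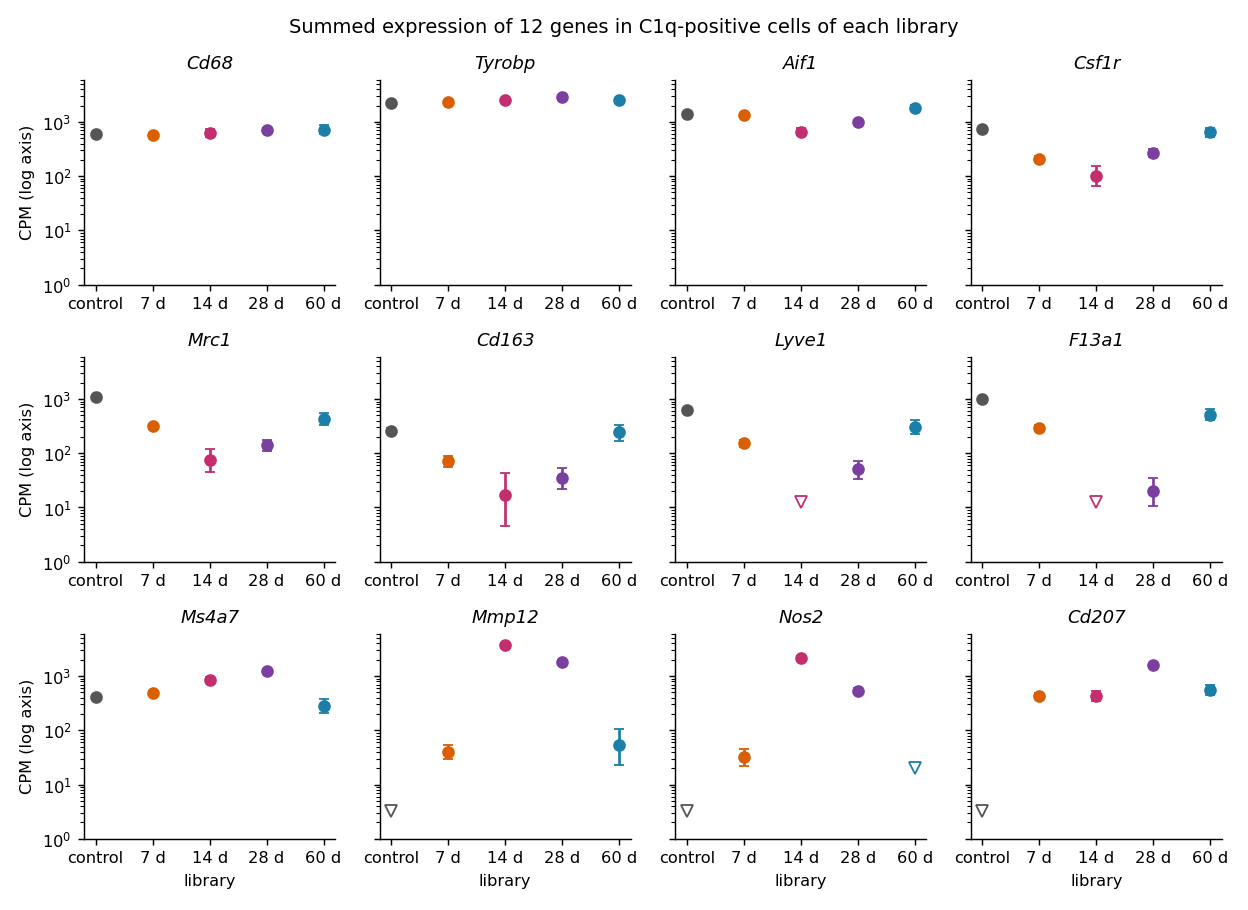
Level of 12 marker genes in C1q-positive cells of the 5 libraries, in CPM on a log axis, with exact Poisson 95% intervals. Open triangles mark 0 UMIs, drawn at the level that 3 UMIs would give. Cd68 (580 to 723 CPM) and Tyrobp (2192 to 2909 CPM) stay within a narrow band, whereas Mrc1 stands at 76.5 CPM at 14 d and Mmp12, with 0 UMIs in control skin, reaches 3705 CPM there.

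Genes of resident and scavenging macrophages fell in the 7, 14 and 28 d libraries, and fewer did at 60 d. Of the 14 genes of this list that were measured (at least 50 CPM in either library of the pair and a UMI in at least 10% of members there), 12, 12, 12 and 5 were at least 2-fold lower than in control skin in time order, and none was 2-fold higher. The same number, 14 of the 20 genes found, was measured at every time. Genes that passed this filter only through control skin could hardly be called higher, so nothing is read from the absence of higher calls. The list's median log2 ratio was -1.57, -3.89, -2.72 and -0.55 in time order. Over all measured genes, 6.72% of 2470 were at least 2-fold lower at 7 d, 17.8% of 2569 at 14 d, 14.6% of 2512 at 28 d and 25.1% of 2415 at 60 d, so the 60 d count was not far from its background. In C1q-negative myeloid cells the same list had medians of -0.52, -1.57, -0.62 and -0.96.

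Among the receptors of this list, Mrc1 stood at 312 CPM at 7 d, 76.5 CPM at 14 d, 140 CPM at 28 d and 432 CPM at 60 d, against 1097 CPM in control skin. These were 0.284, 0.0697, 0.128 and 0.394 of the control level, and the 14 d level was 48.5 CPM without the cell that held 38.9% of its UMIs. Cd163 stood at 72.4, 17.0 and 35.5 CPM at 7, 14 and 28 d, against 261 CPM in control skin, and at 60 d it was 243 CPM. All 4 Cd163 UMIs at 14 d came from 1 cell. Lyve1 had no UMI at 14 d, which allows up to 12.7 CPM, and 152, 50.7 and 304 CPM at 7, 28 and 60 d, against 615 CPM in control skin. The 3 receptors were thus lowest at 14 d and nearer to control at 60 d. Clec10a, a galactose-binding lectin of macrophages and dendritic cells, followed the same order, with 775, 80.7, 375 and 1236 CPM in time order against 1674 CPM in control skin. Folr2, the folate receptor of resident macrophages, stood at 439, 161, 237 and 1243 CPM, against 1021 CPM in control skin. Csf1r stood at 208, 102 and 270 CPM at 7, 14 and 28 d, with ratios to control of 0.282 (0.241 to 0.330), 0.139 (0.0883 to 0.208) and 0.368 (0.308 to 0.438). At 60 d its level of 642 CPM had a ratio of 0.873 (0.697 to 1.08) to the 735 CPM of control skin.

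Other genes of resident cells also had low levels at 7, 14 and 28 d. F13a1, the A chain of coagulation factor XIII and a marker of dermal macrophages, was not seen at 14 d and stood at 294, 20.3 and 513 CPM at 7, 28 and 60 d, against 1002 CPM in control skin. Cfd, the complement factor D protease, stood at 1132, 72.2, 517 and 2580 CPM, against 4362 CPM in control skin. The chemokine Pf4 did not follow this order, with 1097, 2507, 566 and 1391 CPM in time order, against 3433 CPM in control skin. Removing every cell with a Cd207 UMI, an alternative chosen after the data were seen, left 11, 12, 13 and 4 of the 14 genes at least 2-fold lower.

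At 7 d the calls leaned towards higher levels. Of 2470 measured genes, 11.8% were at least 2-fold higher than in control skin and 6.72% at least 2-fold lower. Slfn4, a Schlafen family gene induced by interferon in mouse myeloid cells, had the highest ratio, with 648 CPM against 6.42 CPM in control skin (101-fold, 46.1 to 276). It was found in 88.5% of members at 7 d and 2.42% in control skin. C1q-negative myeloid cells also differed in Slfn4, with 1120 CPM at 7 d and 266 CPM in control skin. Ccl12, a chemokine that attracts monocytes, stood at 295 CPM against 8.56 CPM in control skin (34.5-fold, 17.3 to 80.7). Mfge8, a secreted bridge between dying cells and phagocytes, stood at 239 CPM against 7.49 CPM (32.0-fold, 15.3 to 80.4). At 7 d it stood at 1523 CPM in the 9 cells with a Cd207 UMI and at 82.3 CPM in the 148 without. All other barcodes of that library held Mfge8 at 251 CPM, and the source of the Mfge8 UMIs in members was not tested. Gngt2, a G protein subunit, stood at 149 CPM against 5.35 CPM.

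A further 4 of the 8 highest ratios at 7 d belonged to genes of other cell types. Crabp1, a retinoic acid binding protein, stood at 878 CPM against 12.8 CPM in control skin, but without the deepest 5% of members in each library its log2 ratio was 1.90 in place of 6.10. Tagln (291 CPM against 8.56 in control skin), Myh11 (195 against 6.42) and Acta2 (158 against 7.49) encode contractile proteins of smooth muscle. The cell with most Myh11 held 39.6% of its UMIs, and without it the level was 119 CPM. When cells with any UMI of 8 other-lineage genes, among them Cdh5, Cldn5, Rgs5, Myh11, Cpa3, Cd2 and Lck, were left out, the log2 ratios of Tagln and Acta2 were 2.56 and 1.88 in place of 5.09 and 4.40. The list of mural cell genes summed to 851 CPM at 7 d, against 37.4 CPM in control skin, with Myh11 in 24 and 6 cells and Rgs5, a pericyte marker, in 1 and 0 cells. The fibroblast list summed to 3205 CPM against 1123 CPM, and all 10 of its measured genes were at least 2-fold higher (median log2 1.56). Without the deepest cells it was 3 of 8 (0.90). The part of these RNAs in other results at 7 d was not tested.

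The lowest ratios at 7 d were those of Slc7a11, the cystine importer, with 28.0 CPM against 323 CPM in control skin (0.0867, 0.0571 to 0.127), and of Pdpn, the membrane mucin podoplanin, with 77.2 CPM against 643 CPM (0.120, 0.0939 to 0.152). Siglec10, an inhibitory receptor for sialic acids, stood at 8.69 CPM against 67.4 CPM. Selenop, a secreted selenium carrier, stood at 37.6 CPM against 184 CPM. Tspan7, Tnfsf18 and Arhgap10 were each at or under 14.5 CPM at 7 d.

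At 14 d, with 33 cells, Mmp12 and Nos2 had the highest ratios. Of 2569 measured genes, 18.0% were at least 2-fold higher and 17.8% at least 2-fold lower. Mmp12, the macrophage elastase, had 872 UMIs (3705 CPM) and none in control skin, at least 1155-fold higher against a floor of 3 UMIs. Nos2, the inducible nitric oxide synthase, stood at 2120 CPM with none in control skin, at least 661-fold higher. Their thinned shares were 63.6% and 60.6% of members at 14 d, against 0 of 156 thinned control cells, which allows up to 2.34%, and at most 1.56% of keratin-rich cells in any library. Both genes were therefore carried by most of the 14 d cells and not by a few.

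The other 6 of the 8 highest ratios at 14 d included genes that moved with the Cd207 cells. Mfge8 stood at 2294 CPM against 7.49 CPM in control skin (306-fold, 148 to 766), and its log2 ratio was 5.22 in place of 8.26 without cells that had a Cd207 UMI. Ccl22, a chemokine of dendritic cells that attracts T cells, stood at 472 CPM with none in control skin, at least 147-fold higher, and its log2 ratio was 2.02 in place of 7.20 without those cells. Cd207 itself stood at 429 CPM, and Cd2, an adhesion receptor of T and NK cells and of some myeloid cells, at 391 CPM, both with no UMI in control skin. Cd2 was found in 63.6% of the 14 d cells, whereas Lck, a kinase of T cells, was found in 1 of them. Il21r, the interleukin-21 receptor, and Il4i1, a secreted amino acid oxidase, rested on 1 UMI each in control skin, and their ratios of 139 (23.4 to 5648) and 107 (17.7 to 4392) have wide intervals. Without the cell with most of its UMIs, Ccl22 stood at 299 CPM at 14 d, Il21r at 92.2 CPM and Il4i1 at 57.2 CPM.

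Of the 8 genes with the lowest ratios at 14 d, 4 had no UMI. F13a1, Asgr2, a receptor for galactose-ended glycoproteins, Lyve1 and Fcmr, a receptor for IgM, had no UMI among 235346, against 1002, 659.9, 615 and 459.9 CPM in control skin. For F13a1 this puts the ratio at most at 0.0127 with a floor of 3 UMIs. Tf, the iron carrier transferrin, stood at 17.0 CPM against 1261 CPM in control skin (0.0135, 0.00367 to 0.0346). Cfd stood at 72.2 CPM against 4362 CPM (0.0166), Pmp22, a membrane protein, at 25.5 CPM against 1336 CPM (0.0191), and Selenop at 4.25 CPM, which is 1 UMI, against 184 CPM. At 14 d 1 cell held 52.9% of the Cfd UMIs, and the level without it was 34.7 CPM, and 1 cell held 3 of the 6 Pmp22 UMIs.

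At 28 d Mmp12 and Cd207 had the highest ratios, measured against the same control cells as at the other times. Of 2512 measured genes, 14.6% were at least 2-fold higher and 14.6% at least 2-fold lower than in control skin. Mmp12 stood at 1804 CPM (at least 562-fold higher), Cd207 at 1576 CPM (at least 491-fold), Nos2 at 539 CPM (at least 168-fold), Ccl22 at 438 CPM (at least 136-fold) and Cd2 at 248 CPM (at least 77.4-fold), all with no UMI in control skin. Mfge8 stood at 3367 CPM against 7.49 CPM (450-fold, 218 to 1120). Without cells that had a Cd207 UMI the log2 ratio of Mfge8 was 4.44 in place of 8.81, and that of Ccl22 was 1.75 in place of 7.09. Il21r (107-fold) and Grasp, a scaffold protein (90.0-fold), again rested on 1 UMI each in control skin. Compared with 14 d, the ratios of Mmp12 and Nos2 were smaller and that of Cd207 larger.

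The lowest ratio at 28 d was that of F13a1, with 20.3 CPM against 1002 CPM in control skin (0.0202, 0.0104 to 0.0355), and 41.7% of its 12 UMIs came from 1 cell. Fxyd2, a regulator of the sodium pump, stood at 18.6 CPM against 361 CPM, and Ankrd33b at 11.8 CPM against 237 CPM. Vamp8, a vesicle fusion protein, Tnfsf18, a ligand of the TNF family, Steap4, a metalloreductase, Tspan7, a tetraspanin, and Frmd4b rested on 1 or 2 UMIs at 28 d, and stood between 52.4 and 81.3 CPM in control skin.

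At 60 d lower levels outnumbered higher ones under the scaling by total UMIs. Of 2415 measured genes, 10.9% were at least 2-fold higher (263) and 25.1% at least 2-fold lower (605), and the median log2 ratio of all measured genes was -0.26. At 7, 14 and 28 d that median was -0.02, -0.01 and -0.06. With median-of-ratios scaling, which sets the median gene near 0, 379 genes were higher and 446 lower at 60 d, so 45.9% of calls were higher in place of 30.3%. Values at 60 d are therefore best read relative to -0.26.

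Hspa1b, an inducible heat shock protein 70, had the highest ratio at 60 d among genes seen in many cells, with 4444 CPM against 178 CPM in control skin (25.0-fold, 21.1 to 29.9). Over all other barcodes of the same libraries Hspa1b stood at 1137 CPM at 60 d and 1222 CPM in control skin. The difference in C1q-positive cells was thus not shared by the libraries as a whole. The heat shock list, which holds Hspa1b, had a median log2 ratio of 1.24 at 60 d in C1q-negative myeloid cells, beside 1.35 in C1q-positive cells. Higher heat shock levels were therefore not particular to C1q-positive cells. Cxcl13, a chemokine for B cells, stood at 810.5 CPM against 18.2 CPM (44.6-fold), and 83.3% of its UMIs at 60 d and 94.1% of those in control skin came from 1 cell. Without the deepest 5% of members its log2 ratio was 2.91 in place of 5.48. Nr4a1, an orphan nuclear receptor and immediate early gene, stood at 277 CPM against 20.3 CPM (13.6-fold, 7.73 to 24.9), and at 173 CPM without the cell that held 41.5% of its UMIs. Gngt2 stood at 128 CPM against 5.35 CPM, with 73.7% of its UMIs from 1 cell and 36.0 CPM without it, and the rest of the highest 8 were 5S_rRNA, Gm25541, Rpph1, the RNA of ribonuclease P, and Tagap, a GTPase-activating protein, each with 8 to 17 UMIs at 60 d.

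The lowest ratios at 60 d included a neutrophil chemokine and genes of cystine and thioredoxin handling. Cxcl1, which attracts neutrophils, stood at 675 CPM against 15501 CPM in control skin (0.0436, 0.0354 to 0.0530). Slc7a11 had no UMI at 60 d, against 323 CPM, and Txnrd1, a thioredoxin reductase, stood at 33.8 CPM against 618 CPM (0.0546, 0.0177 to 0.128). Ebi3, a subunit of interleukins 27 and 35, had no UMI, against 413 CPM. Oasl, an interferon-induced gene, stood at 47.3 CPM against 831 CPM. Most of the few Txnrd1 and Oasl UMIs at 60 d came from 1 cell (80.0% of 5 and 85.7% of 7). Ednrb, an endothelin receptor, Slc7a5, an amino acid transporter, and Cd93, a C-type lectin receptor, rested on 1 UMI each at 60 d.

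**Figure D3:**
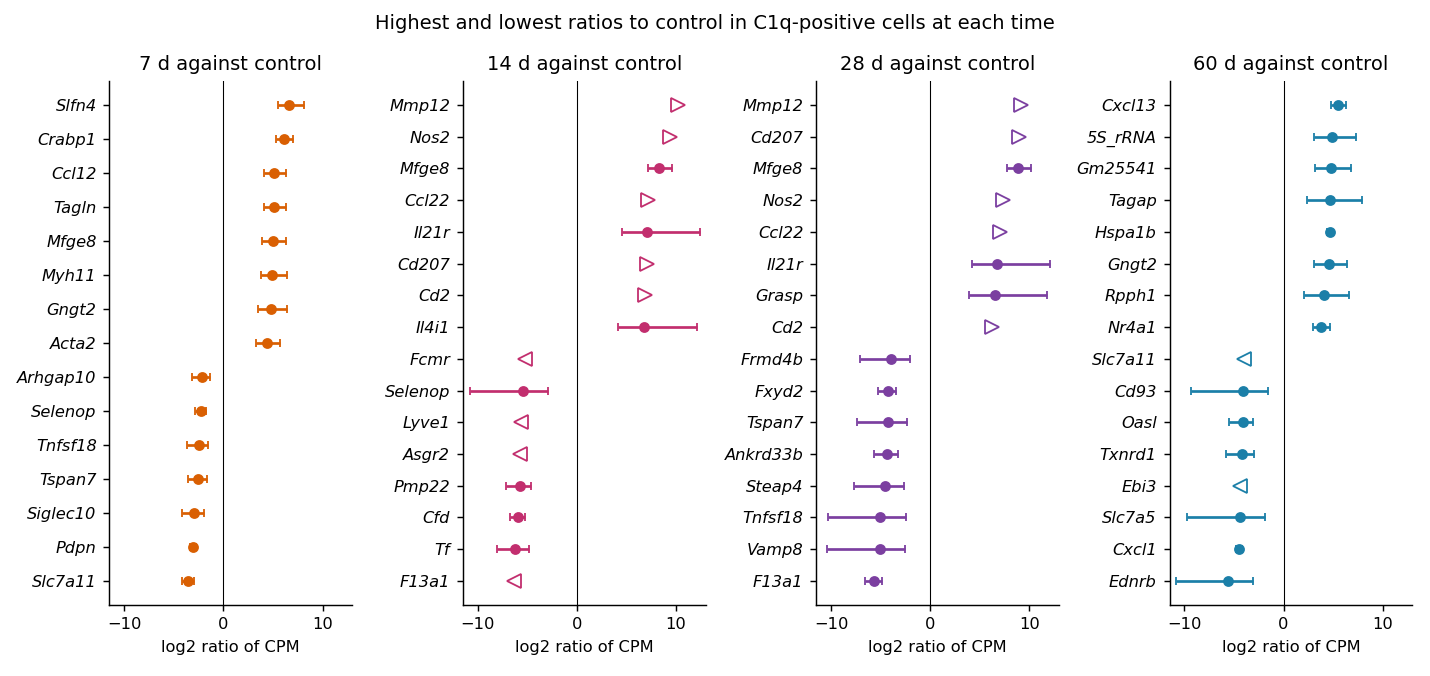
The highest and lowest log2 ratios to control in C1q-positive cells at 7, 14, 28 and 60 d (up to 8 in each direction), with exact 95% intervals for counting error. Open triangles are bounds from a floor of 3 UMIs where a library had none. Mmp12 leads at 14 and 28 d, and F13a1 is lowest in both.

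The gene lists place these genes in pathways, and each count below is a description to be read against the shares of all measured genes given above. A gene could be measured through either library of a pair, so the number measured differed by time. Genes that passed only through the irradiated library could hardly be called lower. Those that passed only through control skin could hardly be called higher. Many immediate early genes, which are transcribed within minutes of a stimulus and also after tissue dissociation, had higher levels in the irradiated libraries. Of 24 measured, 19, 10, 14 and 18 were at least 2-fold higher in time order (medians 2.07, 0.87, 1.07 and 2.31 on the log2 scale). Without other-lineage cells the 14 d count was 16 of 24. That subset kept only 12 of 33 cells at 14 d and 75 of 134 at 28 d. At 14 d the cells it left out were those with Cd2 (21 of 33), which some myeloid cells also carry, while Lck was found in 1 cell. Over all measured genes, 627 were at least 2-fold higher at 14 d in that subset, against 462 in all members. Its 14 d counts here and below rest on those 12 cells. In C1q-negative myeloid cells the medians were 0.88, 0.19, 0.38 and 0.68. Fos stood at 4104, 1181, 1750 and 8814 CPM in time order, against 690 CPM in control skin, and Jun at 4432, 1356, 1622 and 6909 CPM, against 759 CPM. Fosb followed with 4039, 1636, 2090 and 4863 CPM against 831 CPM. The 7 d and 60 d libraries were thus the highest for all 3 of these AP-1 subunits. The part that dissociation had in them was not tested.

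The Nr4a nuclear receptors belong to the same class. Nr4a1 stood at 301, 110, 69.3 and 277 CPM in time order, against 20.3 CPM in control skin, with ratios of 14.8, 5.44, 3.41 and 13.6. At 7 d the deepest cell held 68.9% of the Nr4a1 UMIs, and the level without it was 106 CPM. Leaving out the cell with most Nr4a1 UMIs in every library, control included, gave ratios of 5.76, 3.93, 3.06 and 9.39. Nr4a2 stood at 327, 225, 238 and 81.0 CPM, against 16.0 CPM. Nr4a3 stood at 118, 106, 164 and 20.3 CPM, against 23.5 CPM. At 14 d, without cells that had a Cd207 UMI, the log2 ratio of Nr4a3 became -0.85, which turns its direction. Nr4a1 was above control in all 4 libraries and Nr4a3 was not at 60 d.

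Heat shock genes had their highest medians at 7 d and 60 d. Of 12 measured, 11 were at least 2-fold higher at 7 d (median 1.69), against 1 of 9 at 14 d (0.00; 3 of 10 and 0.73 without other-lineage cells), 4 of 10 at 28 d (0.68) and 7 of 10 at 60 d (1.35). Hspa1b stood at 3080, 310, 1184 and 4444 CPM in time order, against 178 CPM in control skin. At 7 d the deepest cell held 52.3% of the Hspa1b UMIs and at 14 d 1 cell held 76.7%, and without them the levels were 1663 and 73.8 CPM, the second of which lies below control. Hsp90ab1, a cytosolic chaperone, stood at 4167, 1785, 2620 and 3404 CPM, against 1974 CPM, and its co-chaperone Dnaja1 at 3006, 1028, 1419 and 2465 CPM, against 1029 CPM. In C1q-negative myeloid cells the medians were 0.85, 0.03, 0.21 and 1.24, in the same order of libraries. Over all other barcodes Hspa1b also stood higher at 7 d, with 3621 CPM against 1222 CPM in control skin.

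**Figure D4:**
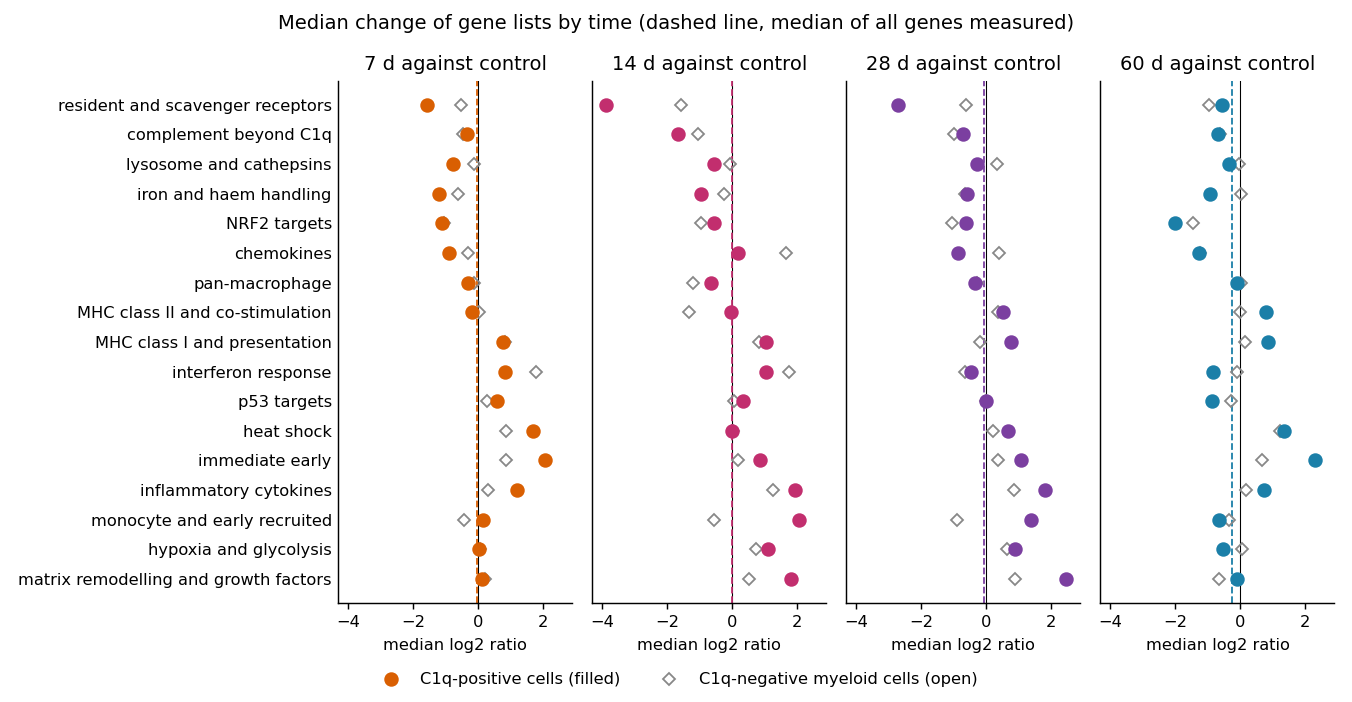
Median log2 ratio to control of 17 gene lists in C1q-positive cells (filled) and in C1q-negative myeloid cells (open diamonds) at 7, 14, 28 and 60 d. The dashed line is the median of all measured genes in C1q-positive cells. Resident and scavenger receptor genes lie farthest to the left at 14 d (-3.89), and immediate early genes to the right at 7 d (2.07) and 60 d (2.31).

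Inflammatory mediators were higher at 7, 14 and 28 d and mixed at 60 d. Of the measured genes of this list, 7 of 12 were at least 2-fold higher at 7 d, 11 of 14 at 14 d, 11 of 13 at 28 d and 4 of 9 at 60 d, with 1, 0, 2 and 4 at least 2-fold lower. The medians were 1.21, 1.94, 1.81 and 0.74, beside 0.32, 1.26, 0.87 and 0.19 in C1q-negative myeloid cells. Il1b, interleukin-1 beta, stood at 575 CPM at 7 d, 1997 CPM at 14 d and 966 CPM at 28 d, against 95.2 CPM in control skin (6.04, 21.0 and 10.2-fold), and at 60 d it was 60.8 CPM. In control skin 43.8% of the Il1b UMIs came from 1 cell, and the level without it was 54.3 CPM. Il1rn, its receptor antagonist, stood at 147, 999, 701 and 60.8 CPM, against 123 CPM. Nfkbia, the NF-kB inhibitor that NF-kB itself induces, stood at 2971, 5027, 3533 and 2708 CPM, against 1199 CPM. Ptgs2, the inducible cyclooxygenase, stood at 213, 1186, 436 and 13.5 CPM, against 71.7 CPM, so 14 d was the highest for all 4 genes.

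Chemokines moved in both directions. Of the measured chemokines, 2 of 14 were at least 2-fold higher and 5 lower at 7 d, 7 of 18 higher and 6 lower at 14 d, 4 of 16 higher and 7 lower at 28 d, and 1 of 13 higher and 7 lower at 60 d. Cxcl2 stood at 8242, 12717, 6891 and 1702 CPM in time order, against 15753 CPM in control skin, and Cxcl1 at 5496, 13673, 6202 and 675 CPM, against 15501 CPM. Ccl2, the main attractant of monocytes, stood at 5600, 1186, 1071 and 2398 CPM, against 9333 CPM. The control cells thus held the highest levels of these 3 chemokines. Ccl4, a chemokine of activated macrophages, went the other way at 14 d with 8099 CPM against 4876 CPM, and stood at 2594, 1179 and 2013 CPM at 7, 28 and 60 d. In C1q-negative myeloid cells the list's median was 1.65 at 14 d and 0.41 at 28 d, beside 0.20 and -0.86 in C1q-positive cells.

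MHC class I genes, which present peptides to cytotoxic T cells, were higher where they changed. MHC class I genes were at least 2-fold higher in 5 of 13, 7 of 12, 3 of 11 and 3 of 11 measured, with none lower (medians 0.77, 1.06, 0.77 and 0.84). Without Cd207 cells the 14 d count was 4 of 12. B2m, the class I light chain, stood at 6536, 8779, 6888 and 5106 CPM in time order, against 4465 CPM in control skin, and RT1-A2, a class I heavy chain, at 672, 969, 1306 and 716 CPM, against 288 CPM. For MHC class II the counts were small, with 0 of 8, 1 of 8, 2 of 10 and 3 of 8 measured genes at least 2-fold higher and 1, 2, 2 and 1 lower. Without Cd207 cells none of 8 was higher and 4 were lower at 14 d, and none of 7 was higher and 3 were lower at 28 d, where the median turned to -0.22 in place of 0.53. Cd74, the invariant chain, stood at 9622, 8052, 15035 and 17338 CPM, against 10738 CPM, and RT1-Db1 at 6748, 8303, 9655 and 14872 CPM, against 6282 CPM. Both were highest at 60 d. The RT1 genes are near-identical copies of each other, and how reads were divided between them is uncertain.

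Interferon-stimulated genes had higher medians at 7 and 14 d than at 28 and 60 d. At 7 d 8 of 18 measured were at least 2-fold higher and at 14 d 9 of 18 (medians 0.84 and 1.06), whereas at 28 d 2 of 13 were higher and 4 lower, and at 60 d 2 of 13 higher and 6 lower. Without Cd207 cells the 28 d balance turned, with 5 of 15 higher, 1 lower and a median of 0.10 in place of -0.46. Without other-lineage cells the 14 d count was 14 of 20. C1q-negative myeloid cells showed medians of 1.78 and 1.74 at 7 and 14 d, and -0.64 and -0.08 at 28 and 60 d. Ifi27l2b stood at 1142, 204, 264 and 209 CPM in time order, against 93.0 CPM in control skin (12.3, 2.19, 2.83 and 2.25-fold). At 14 d 1 cell held 56.2% of its UMIs, and the level without it was 91.1 CPM, below control. Under stricter cell filters its log2 ratio at 14 d became -0.03. Ifi27 stood at 1443, 586, 645 and 675 CPM, against 818 CPM, so it lay above control at 7 d only.

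Genes of the p53 response, induced by DNA damage, showed small counts. At least 2-fold higher were 3 of 14 measured at 7 d, 3 of 13 at 14 d, 4 of 13 at 28 d and 1 of 12 at 60 d, with 0, 0, 2 and 5 lower. Cdkn1a, the cell cycle inhibitor p21, stood at 1109 CPM at 7 d (2.54-fold, 2.26 to 2.85), 765 CPM at 14 d (1.75-fold), 524 CPM at 28 d and 216 CPM at 60 d (0.494, 0.334 to 0.709), against 437 CPM in control skin. Mdm2, the ubiquitin ligase of p53, stood at 292 CPM at 7 d against 153 CPM, and between 74.3 and 144 CPM later. Btg2, an antiproliferative gene that is also an immediate early gene, stood at 3030, 824, 1048 and 3343 CPM, against 518 CPM. Gdf15, a stress cytokine, stood at 1399, 705, 274 and 358 CPM, against 1164 CPM, and at 422 CPM at 14 d without the cell that held 42.8% of its UMIs there. Cell cycle genes were few, with 4 or 5 measured in each library, and Pcna, the replication clamp, stood at 380, 357, 218 and 263 CPM, against 226 CPM.

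Genes of iron and haem handling and of the oxidative stress response (NRF2 targets) were mostly lower where they changed. Of the iron list, 6 of 9, 5 of 10, 4 of 10 and 3 of 9 measured genes were at least 2-fold lower in time order, and of the NRF2 list 6 of 12, 4 of 12, 5 of 13 and 9 of 12. Without other-lineage cells the NRF2 count at 14 d was 8 of 12. C1q-negative myeloid cells also had negative NRF2 medians, -1.04, -0.96, -1.05 and -1.44, beside -1.09, -0.54, -0.63 and -2.00. Hmox1, haem oxygenase 1, stood at 850.3, 1049.5, 419 and 412 CPM, against 3369 CPM in control skin. Prdx1, a peroxiredoxin, stood at 405, 999, 385 and 290.4 CPM, against 1391 CPM. Fth1, the ferritin heavy chain, stood at 12940 CPM at 7 d, 46680 CPM at 14 d, 23291 CPM at 28 d and 11050 CPM at 60 d, against 29564 CPM. Fth1 therefore went above control at 14 d while Hmox1 stayed below it in all 4 libraries. Txn1, thioredoxin, was likewise highest at 14 d, with 1572 CPM against 698 CPM, and stood at 417, 280 and 209 CPM at 7, 28 and 60 d.

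Lysosomal genes were mostly lower where they changed, but at 60 d no more often than all measured genes. Of lysosomal genes, 7 of 21, 10 of 23, 7 of 22 and 4 of 22 were at least 2-fold lower, and 0, 2, 1 and 1 higher. Over all measured genes the lower shares were 6.72%, 17.8%, 14.6% and 25.1%. At 7 d the count was 3 of 21 without other-lineage cells and 4 of 21 without the deepest cells. Cst3, the protease inhibitor cystatin C, stood at 4105, 994, 1314 and 6200 CPM in time order, against 6920 CPM in control skin (613 CPM at 14 d without the cell with most of it), and Ctsb, cathepsin B, at 1201, 1819, 1524 and 2121 CPM, against 2697 CPM. Of complement genes outside the rule, 2 of 11, 7 of 10, 3 of 8 and 2 of 9 were at least 2-fold lower and 3, 1, 0 and 1 higher. Of 6 Fc receptor genes, 3, 2, 2 and 1 were lower and 1, 2, 1 and 1 higher. Fcgr2a, a receptor for IgG, stood at 735, 871, 632 and 466 CPM, against 1846 CPM, and Fcgrt, the neonatal Fc receptor, at 348, 85.0, 123 and 540 CPM, against 858 CPM. Of pattern recognition genes, Tlr2, a receptor for bacterial lipoproteins, stood at 190, 55.2, 59.1 and 60.8 CPM, against 576 CPM. Cd14, the lipopolysaccharide co-receptor, differed less, with 633, 1275, 1296 and 716 CPM, against 1096 CPM.

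Matrix genes had positive medians at 14 and 28 d. Of matrix genes, 12 of 21 were at least 2-fold higher at 14 d and 10 of 19 at 28 d (medians 1.82 and 2.45), with 6 and 3 lower. At 7 d 5 of 13 were higher and at 60 d 1 of 10, so more genes were measured at 14 and 28 d, with the limit of the filter given above. When cells with UMIs of those 8 other-lineage genes were left out, the 28 d count was 8 of 17 and the median 0.07. Spp1, osteopontin, stood at 23.2, 2800, 998 and 6.75 CPM in time order, against 32.1 CPM in control skin. At 28 d 59.9% of the Spp1 UMIs came from 1 cell, and without it the level was 406 CPM, and in control skin 66.7% came from 1 cell, with 10.9 CPM without it. Fn1, fibronectin, stood at 46.3, 80.7, 667 and 47.3 CPM, against 27.8 CPM, and was thus highest at 28 d. Among genes of lipid-associated macrophages, 8 of 16 were at least 2-fold higher at 14 d and 5 of 14 at 28 d, with 2 and 3 lower. Apoe, the apolipoprotein that leads this list, stood at 8250, 15020, 18216 and 30049 CPM, against 21669 CPM. Lgals3, galectin-3, stood at 1143, 4079, 2945 and 939 CPM, against 792 CPM, whereas Trem2, a lipid receptor, stood at 131, 136, 57.4 and 365 CPM, against 387 CPM. Members of this list therefore moved in opposite directions.

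Of the genes of hypoxia and glycolysis, 10 of 17 were at least 2-fold higher at 14 d and 8 of 16 at 28 d, with none lower, and at 60 d 5 of 14 were lower. Without other-lineage cells 5 of 14 were higher at 14 d, and at 28 d 5 of 15 were higher and 1 lower. Aldoa, a glycolytic aldolase, stood at 408, 1084, 868 and 351 CPM in time order, against 520 CPM in control skin, and Ldha, lactate dehydrogenase A, at 456, 875, 811 and 317 CPM, against 339 CPM. Vegfa, the vascular growth factor, stood at 244, 476, 777 and 155 CPM, against 22.5 CPM, ratios of 10.9, 21.2, 34.6 and 6.92, with 98.7 CPM at 60 d without the cell that held 39.1% of its UMIs. Vegfa was above control in all 4 libraries, whereas Aldoa was at least 2-fold higher at 14 d only and Ldha at 14 and 28 d.

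Genes of monocytes were at least 2-fold higher in 9 of 13 at 14 d and 8 of 12 at 28 d (medians 2.05 and 1.37), against 2 of 9 at 7 d and 0 of 7 at 60 d. Of the 20 genes found, more were thus measured at 14 and 28 d. Any that entered only through those libraries could hardly be called lower, which limits these counts and medians. Without other-lineage cells the 28 d count was 5 of 10. In C1q-negative myeloid cells this list had negative medians throughout, -0.44, -0.54, -0.90 and -0.34. S100a6, a calcium-binding protein, stood at 2426, 7729, 4110.5 and 1580.5 CPM, against 1221 CPM in control skin. Lyz2, lysozyme, ran the other way at 14 d with 509.9 CPM, against 5203 CPM in control skin, and stood at 3833, 3791 and 5984 CPM at 7, 28 and 60 d. Of myeloid transcription factors, 6 of 20, 6 of 21, 6 of 21 and 8 of 22 were at least 2-fold higher and 1, 4, 2 and 6 lower. At 60 d 5 of 20 were higher without the deepest cells. Cebpb, a factor of monocytes and of inflammatory genes, stood at 2056, 2065, 2744 and 1189 CPM, against 1259.8 CPM, and Klf4 at 2912, 1049.5, 1139 and 1418 CPM, against 585 CPM. Cxcr4, the receptor for the retention signal Cxcl12, stood at 412, 399, 770.4 and 230 CPM, against 110 CPM, and was at least 2-fold higher in all 4 libraries, but only 1.91-fold higher at 60 d without the deepest cells. Among genes for the uptake of dying cells, 2 of 9, 2 of 9, 2 of 9 and 1 of 8 were at least 2-fold higher and 0, 3, 1 and 0 lower.

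Marker genes of other cells differed between libraries in the C1q-positive cells. The dendritic and Langerhans list summed to 869, 1938, 2580 and 885 CPM in time order, against 254 CPM in control skin. The neutrophil list summed to 149, 722, 603 and 169 CPM, against 62.0 CPM, but S100a8 was found after thinning in 18.2% of members at 14 d and in 70.2% of keratin-rich cells there, so nothing is read from it. The T and NK list summed to 61.8, 705, 443 and 47.3 CPM, against 33.2 CPM, most of it at 14 d from Cd2. The keratinocyte list lay between 1229 and 2740 CPM in all libraries. Endothelial genes summed to at most 118 CPM, with Cdh5 and Cldn5 at 0 in all libraries. The Schwann and melanocyte list summed to between 170 and 1379 CPM, highest in control skin, where Pmp22 gave 1336 CPM of it. Erythroid genes summed to at most 57.9 CPM and skeletal muscle genes to at most 156 CPM. Mast cell genes summed to between 50.7 and 89.2 CPM and B and plasma cell genes to at most 33.8 CPM. At 28 d the mural list summed to 715 CPM, against 37.4 CPM, with Myh11 in 12 cells. The part of these cells or their RNA in the differences was not tested beyond the subsets given beside each result.

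The C1q-positive cells of 28 d fell into cells with and without Cd207, and this split was chosen after the data were seen. Cd207 was found in 45 of 134 cells, and after thinning in 27.8% of members, against 2.39% of keratin-rich cells. Cells with Cd207 carried Mfge8 at 8718 CPM against 162 CPM in cells without it, and Ccl22 at 1150.1 CPM against 10.8 CPM. They carried Cd74 at 23282 CPM against 10095 CPM, and Cdh1, the cadherin that holds Langerhans cells in the epidermis, at 126 CPM against 24.3 CPM. Epcam, another Langerhans cell marker, went the other way, at 27.1 CPM against 81.0 CPM (0.334, 0.114 to 0.815). It was found in 13.3% of cells with Cd207 and 11.2% of cells without, and 1 cell held 58.3% of its UMIs. Apoe stood at 992 CPM against 28532 CPM, Mrc1 at 13.5 CPM against 216 CPM, and Folr2, Cd163 and Lyve1 had no UMI against 378, 56.7 and 81.0 CPM. The 2 kinds of cell thus differed in the levels of these genes, with Epcam not on the side of the cells with Cd207. Cells with Cd207 still had C1qa at 1804 CPM against 3404 CPM, with a median of 11 C1q UMIs against 25. Mmp12 lay mostly in the cells without Cd207, at 343 CPM against 2679.8 CPM, and Nos2 was similar in both, at 478 and 575 CPM. Across libraries few cells held both Mrc1 and Cd207, with 0, 2, 0, 3 and 0 cells in control skin and at 7, 14, 28 and 60 d. At 7 d 7 of the 9 Cd207 cells lacked Mrc1.

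**Figure D5:**
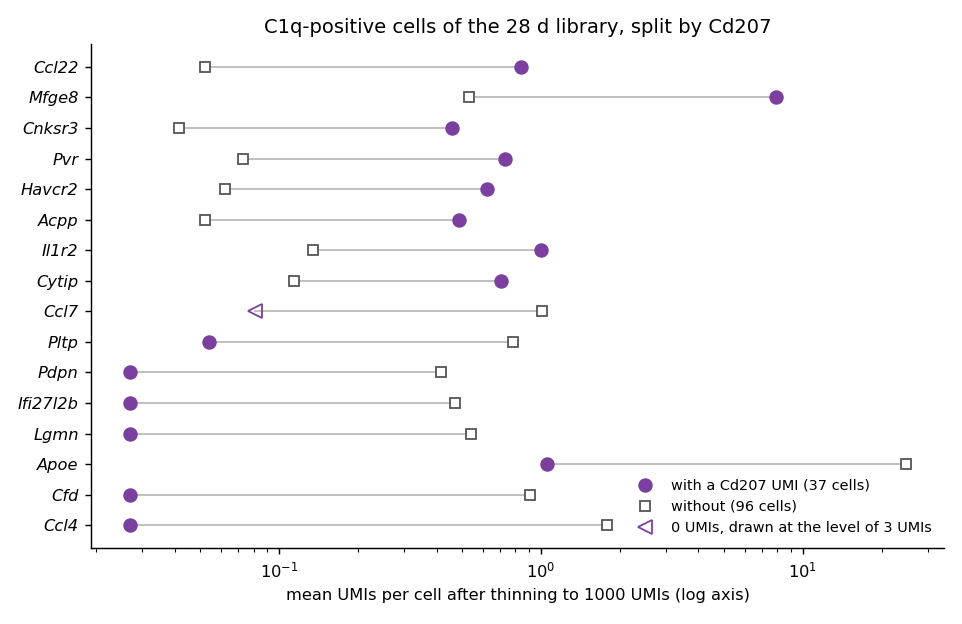
Mean UMIs per cell, on a log axis, of selected genes in C1q-positive cells of 28 d with (37 cells) and without (96 cells) a Cd207 UMI, after every cell was thinned to 1000 UMIs. Mfge8 (7.92 against 0.531) and Ccl22 (0.838 against 0.0521) lie on the side of the cells with Cd207, and Apoe (1.05 against 24.7) on the other.

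Cells with an Spp1 UMI, compared with cells without one at 14 and 28 d after thinning, had more Mmp12 (8.60 against 1.78 UMIs per cell at 14 d, 4.57 against 0.924 at 28 d). There were 10 such cells at 14 d and 14 at 28 d. Pla2g7, a lipoprotein-associated phospholipase, was also higher in both libraries, whereas Fabp4, a fatty acid carrier, was higher at 14 d (1.60 against 0.0435 UMIs per cell) and not at 28 d (0 against 0.0924). Fgl2, a fibrinogen-like protein, was lower in both (0.100 against 0.870 and 0.214 against 1.87), and so were the class II genes RT1-Bb, RT1-Da and RT1-Ba. Cells with an Mrc1 UMI at 28 d had less Mfge8 than those without (1.31 against 2.76 UMIs per cell). Cd163 and Mrc1 were found together in 84 of 165 control cells, and in 29 of 157, 0 of 33, 9 of 134 and 16 of 35 cells at 7, 14, 28 and 60 d.

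C1q-positive cells were last set beside C1q-negative myeloid cells of the same libraries. Since C1q chose the cells, this is a description of what accompanied it. Of 1140 genes with at least 50 CPM in C1q-positive cells of every library, 37 were at least 2-fold higher in them in all 5 libraries. The highest smallest ratios were those of Tmem37 (13.9 to 42.5-fold over the 5 libraries), Ms4a7, a macrophage membrane protein (13.7 to 240-fold), Apoe (9.67 to 36.6-fold), Fcna, the lectin ficolin A (9.18 to 39.0-fold), and Folr2 (9.11 to 59.2-fold). Trem2 (5.37 to 150-fold) and Mrc1 (5.34 to 27.5-fold) followed, with Gdf15, Pf4, Tmem176b, Lgmn, Tmem176a, Cfd and Pltp. They were chosen for being higher in every library, and at 14 d Mrc1 was still found in only 6 of 33 members. Of 1375 genes with at least 50 CPM in C1q-negative cells of every library, 17 were at least 2-fold lower in C1q-positive cells in all 5, among them G0s2, S100a9, S100a8, Ccl5, Nkg7, Slpi, Cd7 and Plac8, genes of neutrophils, monocytes and lymphocytes.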

How the data were processed

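Skin of male Sprague-Dawley rats was profiled with 10x 3' v3 chemistry, 1 library for each of control, 7, 14, 28 and 60 d after irradiation. The authors deposited UMI counts per gene and barcode, raw and not normalized. Their processing notes name Cell Ranger 5.0.0, STAR, Seurat 3.1.1 and the rat build Rnor_6.0. The cell-calling and filter settings of the matrices are not given in the sources used here. The 32623 rows were summed by symbol to 30017 genes. Barcodes were kept with 500 UMIs and 300 genes or more and no more than 20% of UMIs from mitochondrial genes, which left between 4370 and 11304 per library. No doublet caller was run.

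C1q-positive cells were found by the rule given above. Their UMIs were summed per library and expressed as CPM with exact Poisson intervals, ratios had exact conditional binomial intervals, and shares had Clopper-Pearson intervals (95%), all for counting error only. The keratin-rich barcodes used for background had at least 1% of their UMIs in the 6 keratins. A gene at 0 was set against a floor of 3 UMIs over the library's members. A gene was measured with at least 50 CPM in either library of a pair and a UMI in at least 10% of members there, leaving out mitochondrial, ribosomal protein and rule genes. A call was a ratio of at least 2-fold, with no test, since each group is 1 library and cells are not replicates. Cells were thinned to 1000 UMIs for shares and for splits by Mrc1, Spp1 and Cd207 (9, 1, 0, 1 and 1 shallower members left out in control skin and at 7, 14, 28 and 60 d).

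Named genes were the 8 highest and 8 lowest ratios of each irradiated library (leaving out symbols of uncharacterised loci and genes with under 0.25 of the level of all other barcodes), the 3 members of each gene list with the highest mean level, the defining markers, Nr4a1 and Cdkn1a, and the 15 genes most different from C1q-negative myeloid cells in each direction. Other genes were named after their values were seen. A few genes that this rule takes are not reported here. The members, lists and markers were chosen with earlier results of these data known. The calculations were tested on simulated data. Python 3.11.15, numpy 2.4.6, scipy 1.17.1, pandas 2.3.3 and matplotlib 3.10.9 were used. Alternatives changed the C1q threshold, filters, limits, denominator, scaling, weight of deep cells and gene filter. The alternatives without Cd207 cells, and without the cell that held most UMIs of a gene, were chosen after seeing the data.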

Additional observations from a re-analysis of the deposited data

Results flagged for a closer look

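Cdkn1a, the p21 cell cycle inhibitor of the p53 response, moved in opposite directions at the first and the last time. Its log2 ratio to control in C1q-positive cells was 1.34 at 7 d and -1.02 at 60 d. With 1 library at each time the difference between them was not tested.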

How the results depend on the processing

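Of the shares and counts of calls, 86 alternative values kept their direction and size and 14 moved. Without keratin- or collagen-rich barcodes in the denominator, C1q-positive cells were 6.47%, 1.55%, 3.85% and 2.40% of barcodes at 7, 14, 28 and 60 d, against 7.10% in control skin, with differences of -0.625, -5.54, -3.24 and -4.70 points. At 28 d the difference was -0.657 points without cells holding UMIs of other lineages and -0.640 points without cells holding a Cd207 UMI, and the interval of each lies below 0. With the lower gene filter (20 CPM and no minimum share of cells), 822, 946, 783 and 1026 genes were at least 2-fold higher at 7, 14, 28 and 60 d and 304, 871, 682 and 998 at least 2-fold lower. At 60 d, where 1 UMI is worth 6.75 CPM, a level of 20 CPM rests on about 3 UMIs.

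Among named genes, 8 log2 ratios changed sign. These were Arhgap10 at 60 d (0.19 with the mean of per-cell CPM), Ifi27l2b at 14 d (-0.031 with stricter cell filters), Hmgb2 (-0.053) and Nr4a3 (-0.85) at 14 d without Cd207 cells, and Irf8 at 60 d. Irf8 was -0.18 with all 3 C1q genes required, -0.32 without other lineages, -0.15 without the deepest cells and -0.13 without the Cd207 cell. The cause of these turns was not tested. Of 909 list medians under alternatives, 82 changed sign, in 31 of 101 lists and times, and none of those medians exceeded 0.74 in size. Some list counts not given above moved by over 1.5 times, and not all of them are listed here. Without other-lineage cells they included resident genes lower at 60 d (3 of 14), chemokines lower at 7 d (3 of 14) and p53 targets higher at 14 d (5 of 12). Fc receptors lower at 7 d (1 of 6) and 14 d (1 of 7), and uptake genes higher at 7 d (0 of 7), also moved. So did lipid-associated genes lower at 14 d (0 of 16), interferon genes higher at 28 d (4 of 14) and matrix genes lower at 28 d (5 of 17). Without the deepest cells they included pan-macrophage genes lower at 60 d (4 of 19) and p53 targets higher at 7 d (5 of 14). Without Cd207 cells they included p53 targets higher at 28 d (2 of 12). No paired analysis was possible because each group is 1 library, and leaving out replicates was not possible for the same reason. The 33 cells of 14 d and 35 of 60 d limit what can be seen of low genes there.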

Other observations

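Receptors and ligands outside the main lists also differed. Il1r2, the decoy receptor of interleukin-1, stood at 84.0, 170, 397 and 81.0 CPM in C1q-positive cells at 7, 14, 28 and 60 d, against 13.9 CPM in control skin. In control skin 69.2% of the 13 Il1r2 UMIs and at 60 d all 12 came from 1 cell, and without the cell with most of them the 14 d level was 102 CPM. Cd4, which rat macrophages carry, was found in 23 of 157, 0 of 33, 15 of 134 and 9 of 35 C1q-positive cells, against 75 of 165 in control skin.

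In the 60 d library all Cd207 UMIs of C1q-positive cells (554 CPM) came from 1 cell, so the level of Cd207 there describes that cell.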
